A study of Mus musculus with 6 samples.

Results

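The integrated stress response (ISR) regulators described here are 10 genes of the ATF4 axis, namely Atf4, Atf5, Atf3, Cebpg, Trib3, Chac1, Nupr1, Sesn2, Asns and Ppp1r15a. They were taken by name, through their GENCODE symbols, from a count table of 54838 genes, and all 10 were present in it. In AG636-treated leukemia cells 4 of them, Atf4, Trib3, Chac1 and Nupr1, were lower than in vehicle-treated cells, as were 11.0% of all genes tested. Atf5, Cebpg, Sesn2 and Ppp1r15a did not pass the test, and Atf3 and Asns had too few counts to be tested.

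The RNAseq libraries came from the I1DN model of acute myeloid leukemia (AML), made from C57BL/6 fetal liver hematopoietic stem and progenitor cells carrying IDH1R132H, DNMT3AR882H and NrasG12D. Every library, control or treated, carried these 3 alleles and traces to a single leukemia that was transplanted into sublethally irradiated Ptprca recipients. Of the 6 recipients, 3 received vehicle and 3 received AG636, an inhibitor of the pyrimidine synthesis enzyme DHODH, at 100 mg/kg by oral gavage b.i.d. The comparison asks how leukemia stem cell (LSC)-enriched cells respond to inhibition of pyrimidine synthesis in the animal. The descriptions of the study give the treatment as either 1 day or 4 days, and the sorted cells as cKit+CD11b- or cKit-high CD11b-low. Cells were sorted from bone marrow and spleen, and the tissue of each library was not given in the sources used here.

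In the ISR, the kinases HRI, PKR, PERK and GCN2 (Eif2ak1 to Eif2ak4) phosphorylate eIF2alpha when heme is short, double-stranded RNA appears, proteins misfold in the endoplasmic reticulum (ER) or amino acids run out. General translation initiation then slows, while the mRNA of the transcription factor ATF4 is translated more efficiently through its upstream open reading frames. ATF4 protein, often as a dimer with a C/EBP factor, activates genes of amino acid synthesis, amino acid uptake and tRNA charging, together with genes that feed back on the response. Because much of the control of ATF4 is at translation, its mRNA level does not report its protein, and no protein was measured in these libraries.

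ATF4 and C/EBP dimers are known to bind a composite element whose core reads TGATGCAA, and the sequences around matches to it are shown because several of the genes described below carry one. The promoter windows were 300 bases from RefSeq on GRCm38.p6, from 250 bases before each annotated start to 50 after it, and all 10 regulators had at least 1 window (11 windows in all). Both strands were searched for TGATGCAA, for the looser TGATGNAA, which contains the first, and for TGACGTCA, the cAMP response element. TGATGCAA was in the windows of 3 of the 10 genes, against 1.03% of all 27025 genes with a window. TGATGNAA was in 5 of the 10, against 4.51% of all these genes. TGACGTCA was in 1 of the 10, against 2.03% of all these genes. Each line gives 30 bases on the gene's own strand with the match in capitals; TTGCATCA is TGATGCAA read from the other strand.
Atf3: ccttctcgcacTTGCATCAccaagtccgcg
Chac1: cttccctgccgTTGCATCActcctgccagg
Nupr1: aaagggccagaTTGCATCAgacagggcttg
Trib3: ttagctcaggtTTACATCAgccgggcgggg
Asns: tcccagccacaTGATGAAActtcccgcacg
Ppp1r15a: cgcctctccggTGACGTCAgcacagcgccg

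The Chac1 match lay 193 bases before the start site, those of Atf3 and Nupr1 both 110 bases before it, and that of Asns 23 bases before it. The Trib3 match began at base 15 of the transcript. For Chac1, the regulator with the largest decrease, the stretch from 250 bases before the start site to the first annotated exon base (chr2:119350992-119351228, plus strand, GRCm38.p6) read as follows, with the match in capitals. The 250 bases before the Atf4 start site (chr15:80254934-80255183, plus strand) are given beside it and held none of the 3 patterns. The windows of Atf5, Cebpg and Sesn2 held none of them either, which says only that these letters are not in these windows.
Chac1: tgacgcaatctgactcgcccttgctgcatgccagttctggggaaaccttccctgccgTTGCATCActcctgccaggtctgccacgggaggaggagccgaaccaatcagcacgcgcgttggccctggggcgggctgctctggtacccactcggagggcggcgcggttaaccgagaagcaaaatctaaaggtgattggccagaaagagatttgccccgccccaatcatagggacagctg
Atf4: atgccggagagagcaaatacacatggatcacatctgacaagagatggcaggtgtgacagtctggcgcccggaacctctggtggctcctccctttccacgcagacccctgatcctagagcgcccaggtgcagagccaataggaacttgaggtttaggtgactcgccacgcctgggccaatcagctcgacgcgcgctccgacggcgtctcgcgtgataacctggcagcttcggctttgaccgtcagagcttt

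Libraries were made from the 3' ends of transcripts and held between 4634963 and 7906589 assigned counts, so that 3 counts correspond to between 0.392 and 0.637 CPM (reads scaled to library size). CPM were scaled by TMM factors, and 11092 genes passed the filter on low counts. The first principal component held 58.6% of the variance and separated the 3 AG636 from the 3 vehicle libraries. By the quasi-likelihood test of edgeR, with p adjusted by the Benjamini-Hochberg method, 1146 genes (10.3%) were higher and 1222 (11.0%) lower with AG636 at an adjusted p under 0.05, and with library size alone as the scaling the split was 1483 higher and 913 lower. That scaling moved the median log2 fold change of all genes from 0.03 to 0.12. Nothing in the labels says that a library came from more than 1 mouse, and p-values measure the spread between these 6 libraries. An exact permutation test of 3 against 3 cannot give a two-sided p below 0.1.

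Atf4 (ENSMUSG00000042406, chr15:80255184-80257541, plus strand), the central transcription factor of the response, had levels of 387, 387 and 355 CPM in the 3 vehicle libraries and 204, 243 and 165 CPM in the 3 AG636 libraries. The highest treated library lay well below the lowest control library. Mean levels were 376 ± 18.6 CPM with vehicle and 204 ± 39.0 CPM with AG636 (SD, n = 3 mice per group). This gave a log2 fold change of -0.88 (SE 0.145, 95% interval -1.21 to -0.56), with an adjusted p of 0.00517 by edgeR's quasi-likelihood test and an exact permutation p of 0.1, the smallest it can give. Between 876 and 2958 reads supported each value, and the decrease passed the threshold with each of the 6 libraries left out in turn.

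Atf5 (ENSMUSG00000038539, chr7:44812256-44816658, minus strand) encodes a factor related to ATF4 that is likewise controlled through upstream reading frames and is known for its part in the mitochondrial stress response. Its levels were 12.7, 17.0 and 13.8 CPM with vehicle and 9.13, 7.22 and 10.4 CPM with AG636. The groups did not overlap, yet the log2 fold change of -0.70 (SE 0.233) had an adjusted p of 0.0560 in edgeR's test and stayed above the threshold under each alternative, with a range of 0.0519 to 0.179. Its exons overlap those of Nup62 on the opposite strand over 576 bases. Nup62 held 8185 counts over the 6 libraries against 400 for Atf5, the use of strand in counting was not given in the sources used here, and reads of the 2 genes may not be told apart.

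Atf3 (ENSMUSG00000026628), a stress-induced factor that acts downstream of ATF4, was close to the limit of detection. The vehicle libraries held 6, 2 and 4 reads and the AG636 libraries 0, 8 and 11. The treated libraries lay on both sides of the controls, and the ratio of summed counts (AG636 to vehicle, 19 against 12 reads, scaled for library size) was 1.92 with an exact 95% interval of 0.886 to 4.34 for counting error only. With a lower filter (a minimum count of 5), the log2 fold change was 0.86 with an adjusted p of 0.526 by edgeR's quasi-likelihood test.

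Cebpg (ENSMUSG00000056216, chr7:35046422-35056573, minus strand), a C/EBP factor that pairs with ATF4 at many of its targets, had 49.0, 30.5 and 45.3 CPM with vehicle and 47.4, 38.4 and 42.7 CPM with AG636. The treated values lay inside the range of the controls. Cebpg had a log2 fold change of 0.05 (SE 0.195, 95% interval -0.39 to 0.48), an interval that holds changes in both directions. The adjusted p was 0.888 in edgeR's test.

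**Figure D1:**
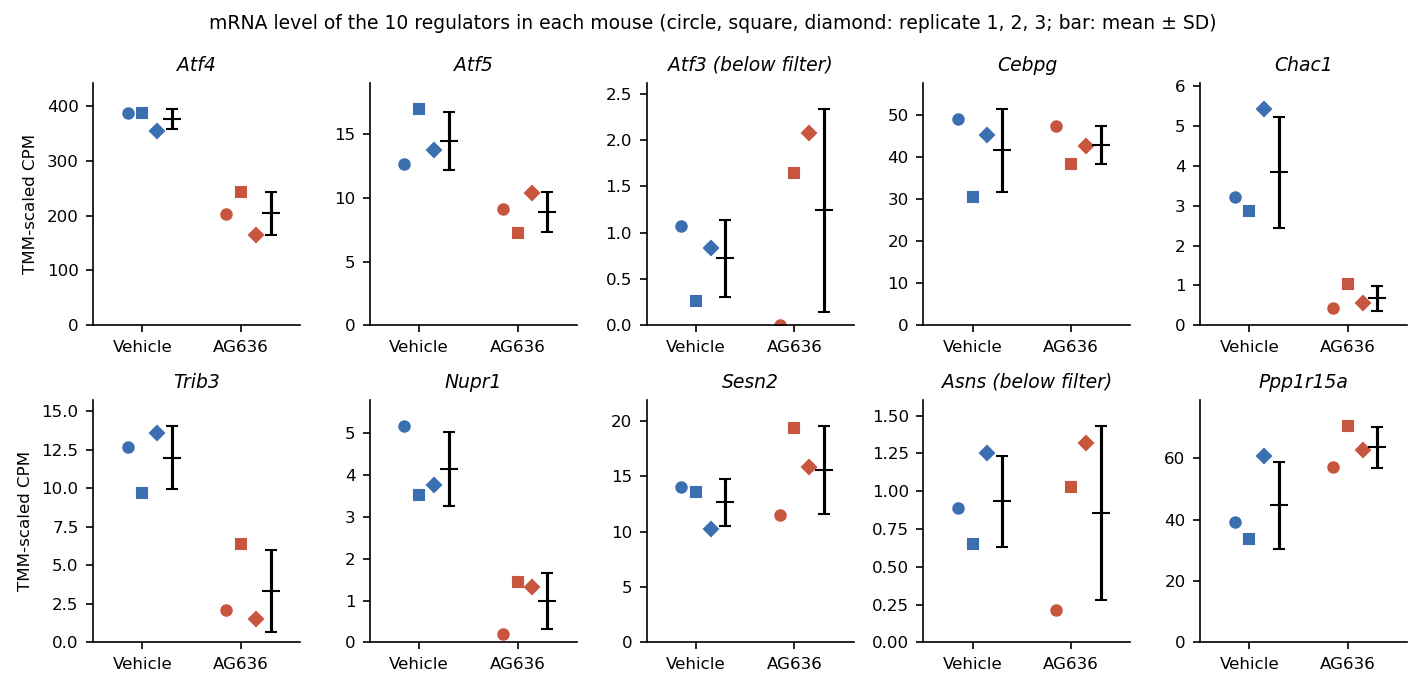
Level of each of the 10 regulators, in TMM-scaled CPM from 0 on the y axis, in the 3 vehicle (blue) and 3 AG636 (red) libraries, with the mean and SD beside each group. For Atf4, Atf5, Chac1, Trib3 and Nupr1 each AG636 point lies below each vehicle point, while the groups overlap for the other 5.

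Among the feedback genes, Chac1, Trib3 and Nupr1 had the largest decreases of the regulators. Chac1 (ENSMUSG00000027313, chr2:119351229-119354381, plus strand) encodes an enzyme that degrades glutathione. The vehicle libraries held 18, 22 and 26 reads (3.21, 2.88 and 5.43 CPM) and the AG636 libraries 2, 5 and 3 reads (0.425, 1.03 and 0.566 CPM). Every treated library was far below every control, and 2 of the 3 treated libraries were at or under 3 counts. The summed counts, 10 with AG636 against 66 with vehicle, gave a ratio of 0.184 after scaling for library size, with an exact 95% interval of 0.0843 to 0.360 that covers counting error only. The log2 fold change of -2.45 (SE 0.502) had an adjusted p of 0.0114 in edgeR's quasi-likelihood test, and by size it was number 5 among the decreases of the 11092 genes tested. Chac1 passed the filter on low counts through its vehicle libraries, so this rank only describes the genes that could be tested. Without AG636 replicate 3 the adjusted p of the same test was 0.0505.

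Trib3 (ENSMUSG00000032715, chr2:152337422-152344032, minus strand) encodes a pseudokinase that binds ATF4 and restrains its activity. It had 12.7, 9.68 and 13.6 CPM with vehicle and 2.12, 6.39 and 1.51 CPM with AG636, from 71, 74 and 65 against 10, 31 and 8 reads. AG636 replicate 2 lay apart from the other 2 treated libraries and still below each control. The means were 12.0 ± 2.04 and 3.34 ± 2.66 CPM (SD, n = 3 mice per group). Trib3 had a log2 fold change of -1.84 (SE 0.445, 95% interval -2.82 to -0.85) with an adjusted p of 0.0194 by edgeR's test. The call was lost without AG636 replicate 1 (adjusted p = 0.0688) or without AG636 replicate 3 (adjusted p = 0.0638), and without AG636 replicate 2 the log2 fold change was -2.71 with an adjusted p of 0.00322, all by edgeR's test.

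Nupr1 (ENSMUSG00000030717, chr7:126623249-126630861, minus strand) encodes a small stress-induced chromatin protein. The vehicle libraries held 29, 27 and 18 reads (5.17, 3.53 and 3.76 CPM) and the AG636 libraries 1, 7 and 7 (0.212, 1.44 and 1.32 CPM). The groups did not overlap, and AG636 replicate 1 was under the level of 3 counts. The ratio of summed counts, 15 against 74, was 0.246 after the same scaling (exact 95% interval 0.131 to 0.433, counting error only). Nupr1 had a log2 fold change of -2.02 (SE 0.510) with an adjusted p of 0.0222 in edgeR's test. The call was lost without AG636 replicate 1 (0.0562) or replicate 3 (0.0581) and without Vehicle replicate 1 (0.0672) or replicate 2 (0.0576), each an adjusted p from edgeR's test.

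Ppp1r15a (ENSMUSG00000040435, chr7:45522916-45526268, minus strand) encodes GADD34, the inducible subunit that directs protein phosphatase 1 to eIF2alpha and so ends the response. It had 39.4, 33.9 and 60.8 CPM with vehicle and 57.3, 70.5 and 62.9 CPM with AG636. Vehicle replicate 3 lay among the treated libraries, and the other 2 controls lay below them. Its log2 fold change was 0.52 (SE 0.210, 95% interval 0.05 to 0.98) with an adjusted p of 0.103 by edgeR's test. Without Vehicle replicate 3 it was 0.77 with an adjusted p of 0.0162, and with no filter on low counts it was 0.49 with an adjusted p of 0.0384, both by edgeR's quasi-likelihood test.

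Sesn2 (ENSMUSG00000028893, chr4:132492032-132510501, minus strand) encodes a leucine-sensing inhibitor of mTORC1 signalling that ATF4 is known to induce. Its levels were 14.1, 13.6 and 10.2 CPM with vehicle and 11.5, 19.4 and 15.9 CPM with AG636. The groups overlapped, since AG636 replicate 1 lay below 2 of the 3 controls. Sesn2 had a log2 fold change of 0.29 (SE 0.244, 95% interval -0.25 to 0.84), and the adjusted p was 0.412 in edgeR's test.

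Asns (ENSMUSG00000029752), asparagine synthetase and a classic ATF4 target, was at 5, 5 and 6 reads with vehicle and at 1, 5 and 7 reads with AG636. The sums of 16 reads with vehicle and 13 with AG636 gave a ratio of AG636 to vehicle of 0.987 when scaled for library size, with an exact 95% interval of 0.437 to 2.19 for counting error only, so that neither a change of the size seen for Atf4 nor its absence was detectable at this depth.

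Of the 8 regulators tested, 4 were lower and 0 higher by edgeR's quasi-likelihood test at an adjusted p under 0.05, beside 11.0% lower and 10.3% higher among all genes tested. DESeq2 and limma-voom also gave 4 lower and 0 higher, and at an unadjusted p under 0.05 edgeR gave 5 lower and 1 higher. The median log2 fold change of the 8 was -0.79, beside 0.03 for all genes tested. Groups did not overlap for 5 of the 8, all lower with AG636, beside 41.1% of all genes tested in either direction. Chac1, Nupr1 and Trib3 passed the filter on low counts through their vehicle libraries, so these counts and the median describe the genes that could be tested and are not support for a direction. With at least 10 counts required in every library, these 3 genes were not tested, and Atf4 was the only regulator called.

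**Figure D2:**
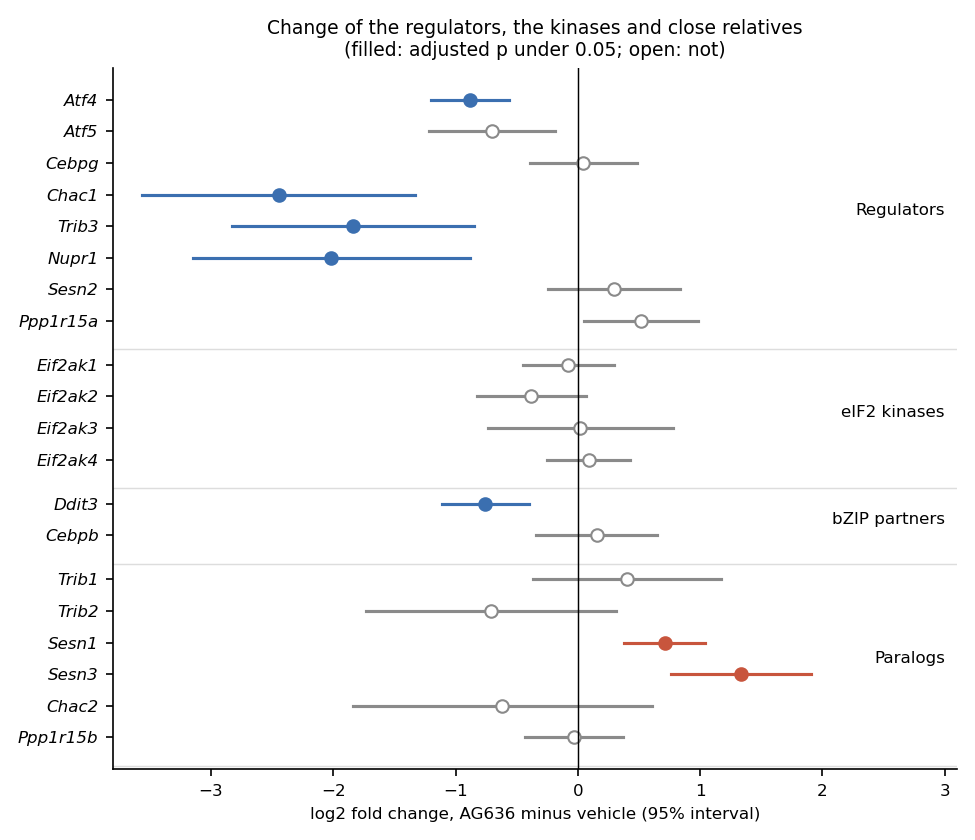
Log2 fold change, AG636 minus vehicle, on the x axis with its 95% interval for the 8 regulators tested, the 4 eIF2 kinases, 2 dimer partners and 6 paralogs (filled points: adjusted p under 0.05). Intervals of Atf4, Chac1, Trib3, Nupr1 and Ddit3 lie below 0, those of Sesn1 and Sesn3 above it, and those of the 4 kinases span it; Atf5 and Ppp1r15a have intervals that miss 0 but open points.

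Of the mRNAs for the 4 kinases that start the response, 0 passed the threshold in edgeR's test, 0 had an unadjusted p under 0.05, and 0 passed with DESeq2 or limma-voom. Eif2ak4, which encodes the amino acid sensor GCN2, had 28.9, 28.1 and 32.0 CPM with vehicle and 31.2, 32.6 and 30.6 CPM with AG636 (log2 fold change 0.09, 95% interval -0.25 to 0.42). Eif2ak3, for the ER kinase PERK, had a log2 fold change of 0.02 with the wide interval of -0.74 to 0.78. Eif2ak1 (HRI) had a log2 fold change of -0.08 (-0.45 to 0.29) and Eif2ak2 (PKR) a log2 fold change of -0.38 (-0.82 to 0.06). Exons of Eif2ak1 overlap those of Aimp2 on the opposite strand over 974 bases. Aimp2 held 3151 counts over the 6 libraries against 1844 for Eif2ak1, and reads of these genes may not be told apart. Of the 9 genes for the kinases and their control, Gcn1l1, the ribosome-bound activator of GCN2, was the one that passed, at -0.63 (adjusted p = 0.00986, edgeR's test), a share near the 11.0% lower among all genes tested.

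Of 13 tested genes for eIF2, its exchange factor eIF2B and the eIF2 phosphatase, 5 were lower and 0 higher, beside 11.0% lower and 10.3% higher among all genes tested, and the median log2 fold change was -0.46 against 0.03 for all genes. Eif2s2, the beta subunit of eIF2, fell by 0.85 on the log2 scale (1104 ± 57.6 against 613 ± 63.7 CPM, SD, n = 3 mice per group; adjusted p = 0.00291 by edgeR's test). Eif2s3x, for the gamma subunit, was also lower, as were the eIF2B genes Eif2b3, Eif2b4 and Eif2b5, and the calls of these 4 genes were each lost in at least 2 of the 6 cases with a library left out, among them without AG636 replicate 3. With library size alone as the scaling, the calls of Eif2b3 (adjusted p = 0.0552, edgeR's test) and Eif2b4 (0.0874) were lost as well. Exons of Eif2b4 overlap those of Snx17 on the opposite strand over 1588 bases, with 1331 counts for Snx17 against 2575 for Eif2b4. Eif2s1, for the alpha subunit that the kinases phosphorylate, had a log2 fold change of -0.48 with an adjusted p of 0.0628 in edgeR's test. Ppp1r15b, the constitutive counterpart of Ppp1r15a, had one of -0.04 (adjusted p = 0.904).

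Among 7 tested dimer partners of ATF4, 1 passed the threshold, beside 21.3% of all genes tested in either direction. Ddit3, which encodes CHOP, the factor of the response known for its link to cell death, had 58.7, 46.4 and 43.9 CPM with vehicle and 28.7, 29.7 and 29.8 CPM with AG636. The treated libraries lay close together and below each control, and the log2 fold change was -0.76 (SE 0.161, adjusted p = 0.0125 in edgeR's test). Its exons overlap those of Mars on the opposite strand over 261 bases. Mars held 3750 counts over the 6 libraries against 1331 for Ddit3, and was itself lower with AG636, at -0.94 (adjusted p = 0.00329, edgeR's test). Cebpb had a log2 fold change of 0.15 (adjusted p = 0.647). Its exons overlap those of Tmem189 on the opposite strand over 312 bases, with 1152 counts for Tmem189 against 727 for Cebpb.

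Genes listed as ATF4 targets, not all of them established as such, were described by function, 50 in all, of which 44 were tested. Those of amino acid and one-carbon synthesis, amino acid transport and tRNA charging numbered 32 tested, and 27 of them were lower and 0 higher, with a median log2 fold change of -0.86, beside 11.0% lower, 10.3% higher and a median of 0.03 among all genes tested. The 27 include Pycr1, with 30, 49 and 17 reads in the vehicle and 6, 8 and 5 in the AG636 libraries, and Slc6a9, with 92, 76 and 26 against 9, 20 and 5. Both passed the filter on low counts through their vehicle libraries, so these counts describe the genes that could be tested. In amino acid and one-carbon synthesis 7 of 10 were lower, with a median log2 fold change of -0.82. The group includes Phgdh (-0.80) and Psat1 (-0.80) of serine synthesis, Shmt2 (-0.99) and Mthfd2 (-1.28) of mitochondrial folate metabolism, and Pycr1 (-1.99) of proline synthesis. Psat1 had 253, 257 and 261 CPM with vehicle and 155, 150 and 139 CPM with AG636, a spread within groups that is small beside the difference.

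In amino acid transport 7 of 9 were lower, with a median of -1.34, beside 11.0% lower and a median of 0.03 among all genes tested. Slc7a5, the light chain of the leucine transporter LAT1, had 108, 92.5 and 81.5 CPM with vehicle and 35.9, 49.1 and 27.0 CPM with AG636 (log2 fold change -1.34, adjusted p = 0.00453 by edgeR's test). Slc7a11, the cystine transporter, was at -1.42 and the glycine transporter Slc6a9 at -2.20. The call of Slc7a11 was lost without AG636 replicate 3, and that of Slc6a9 without AG636 replicate 1 or 3 or Vehicle replicate 1 or 2. Slc3a2, at -0.46, lost its call without AG636 replicate 1 or 3. Slc38a2, a glutamine transporter and well-known amino acid response gene, was at 0.19 with an adjusted p of 0.310 in edgeR's test. Slc1a4 was at -1.51 and did not pass (adjusted p = 0.0779), with AG636 replicate 2 at 10.1 CPM and the other treated libraries at 1.27 and 2.64 CPM.

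All 13 genes of tRNA charging were lower, namely 12 cytosolic aminoacyl-tRNA synthetases and Xpot, which exports tRNA from the nucleus. Their log2 fold changes ran from -1.74 for Cars to -0.60 for Wars. The median was -0.85 beside 0.03 for all genes tested, of which 11.0% were lower. Cars had 60.4, 42.1 and 41.6 CPM with vehicle and 15.7, 15.7 and 11.9 CPM with AG636. With single libraries left out, the calls of Sars (without Vehicle replicate 2 or AG636 replicate 3) and Wars (without Vehicle replicate 1 or AG636 replicate 1 or 3) were lost, while those of the remaining 11 genes held.

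Among the signalling and stress genes listed with the ATF4 targets, both directions were seen. Of 12 tested, 5 were higher and 1 lower, with a median log2 fold change of 0.31, against 10.3% higher, 11.0% lower and a median of 0.03 over all genes tested. Ddit4, which encodes REDD1, an inhibitor of mTORC1, had 10.9, 21.8 and 29.0 CPM with vehicle and 60.5, 81.0 and 65.9 CPM with AG636 (log2 fold change 1.75, SE 0.289, adjusted p = 0.00521 by edgeR's quasi-likelihood test). Txnip (1.17), which restrains glucose uptake, the p53 targets Bbc3 (0.91) and Gadd45a (0.78), and Map1lc3b (0.63), the autophagosome protein LC3B, were the other 4 that rose. The part of ATF4, or of other regulators, in the changes of these 5 genes and of the targets that were lower was not tested. Eif4ebp1, the translation repressor 4E-BP1, was lower at -0.57 (adjusted p = 0.0213 by edgeR's test). Without AG636 replicate 3 or Vehicle replicate 1 the calls of Bbc3, Gadd45a and Eif4ebp1 were lost, the last 2 also without Vehicle replicate 2 or AG636 replicate 1. Gdf15, a secreted stress factor, had a log2 fold change of -1.40 with an adjusted p of 0.0742.

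**Figure D3:**
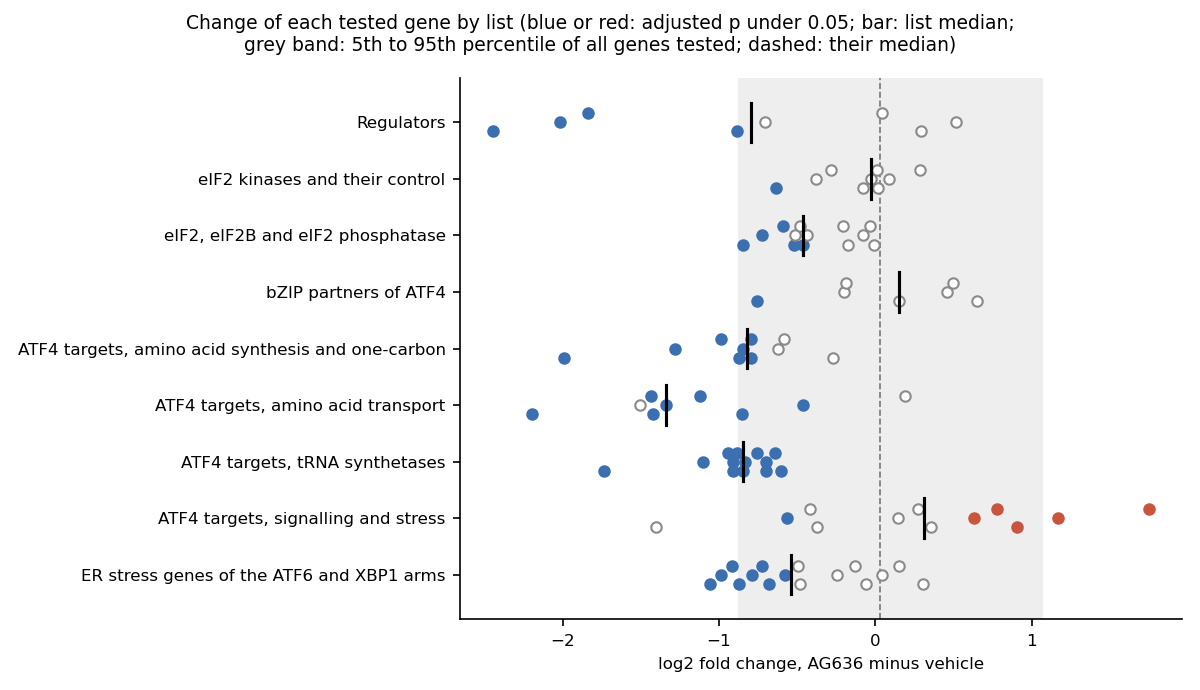
Log2 fold change, AG636 minus vehicle, of each tested gene of the regulators and 8 related lists (filled blue or red: adjusted p under 0.05; bar: list median; grey band: the range from the 5th to the 95th percentile of all genes tested). The 13 tRNA charging genes lie between -1.74 and -0.60, while the signalling and stress genes reach from -1.40 to 1.75.

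Genes of the other arms of the ER stress response were set beside the regulators because PERK acts in the same response. Of 16 genes of the ATF6 and XBP1 arms, 8 were lower and 0 higher, against 11.0% and 10.3% of all genes tested, and the median log2 fold change was -0.54 against 0.03. Hspa5, the ER chaperone BiP, was at -0.87 (994 ± 187 against 544 ± 98.6 CPM, SD, n = 3 mice per group; adjusted p = 0.00911 by edgeR's test). Xbp1 itself had a log2 fold change of -0.06 with an interval of -0.55 to 0.43. Herpud1, a component of ER-associated degradation, is not among these 16 and was counted with the signalling and stress genes listed with the ATF4 targets. It was at -0.41 with an adjusted p of 0.0704 in edgeR's test, and at an adjusted p of 0.0446 with no filter on low counts.

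Of 13 paralogs and related factors, 3 were higher and 1 lower in edgeR's test, beside 10.3% and 11.0% of all genes tested, with a median log2 fold change of 0.29 against 0.03. Jun (0.89) was among those higher, and its call was lost with any single library other than Vehicle replicate 3 left out. Cebpz (-0.54) was the one lower, and its call was lost without AG636 replicate 3. Sesn1 (0.71, adjusted p = 0.0120) and Sesn3 (1.33, adjusted p = 0.00899), relatives of Sesn2 known as targets of p53 and FOXO factors, were higher with AG636 by edgeR's test. Sesn3 had 3.74, 3.92 and 5.22 CPM with vehicle and 9.98, 12.0 and 10.4 CPM with AG636. Trib2 had a log2 fold change of -0.71 (adjusted p = 0.289), Trib1 one of 0.40 (0.431) and Chac2 one of -0.62 (0.445), all by edgeR's test. Trib2 was, like Trib3, highest of the treated libraries in AG636 replicate 2, at 17.5 CPM against 4.46 and 5.10 CPM, and without that library its log2 fold change was -1.62 with an adjusted p of 0.00988.

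Genes with TGATGCAA in their promoter windows were also found among the targets, and matches of some of them read as follows in 30 bases on the gene's own strand.
Slc7a11, distal match: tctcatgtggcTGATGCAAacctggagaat
Slc7a11, proximal match: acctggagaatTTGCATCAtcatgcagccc
Pycr1: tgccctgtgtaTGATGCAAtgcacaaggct
Slc1a4: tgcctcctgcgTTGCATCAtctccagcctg
Yars: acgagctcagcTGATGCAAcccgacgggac

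Of the regulators and related genes that were tested and had a window, 12 held TGATGCAA, and 8 of these were lower and 0 higher in edgeR's test. Of the 53 without it, 21 were lower and 5 higher. Among all other tested genes that had a window, 53 held it, with 5 lower (9.43%) and 14 higher (26.4%), and 8306 did not, with 11.0% lower and 10.1% higher. The 8 include Chac1, Nupr1 and Pycr1, which passed the filter on low counts through their vehicle libraries. No test was made of these counts, and a match is not evidence of binding.

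**Figure D4:**
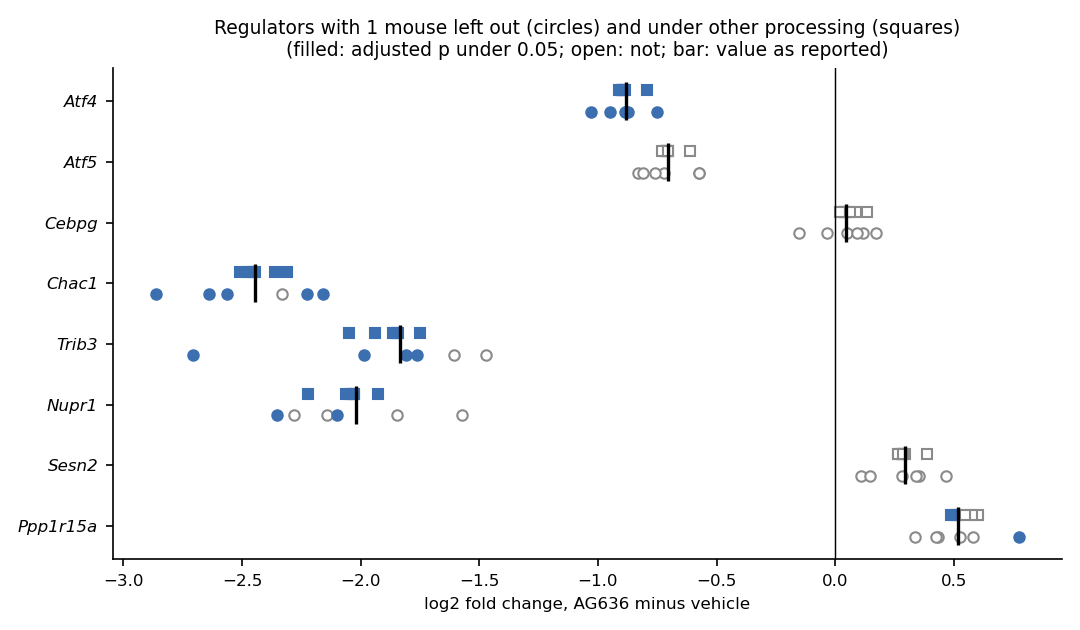
Log2 fold change, AG636 minus vehicle, of the 8 regulators tested, with each of the 6 libraries left out in turn (circles) and under other processing (squares), beside the value as reported (bar); filled symbols have an adjusted p under 0.05. All symbols of Atf4 are filled and lie between -1.03 and -0.75, whereas each of Chac1, Trib3 and Nupr1 has open circles.

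Other features of the libraries moved with treatment. Kit, the stem and progenitor marker used in the sort, lay between 31.8 and 46.3 CPM in all 6 libraries, with a log2 fold change of 0.15 (adjusted p = 0.550 by edgeR's test). Itgam, which encodes CD11b, the marker the sort selected against, was higher with AG636 at 1.21 (adjusted p = 0.0219), a call that was lost without Vehicle replicate 1 or 2 or AG636 replicate 1 or 3. Both belong to a list of 6 surface markers, of which 4 were higher and 0 lower. The median log2 fold change of the list was 0.76, beside 10.3% higher, 11.0% lower and a median of 0.03 among all genes tested. Besides Itgam, those higher were Cd33 (1.77, adjusted p = 0.00906), Fcgr3 (0.87, 0.0474) and Ptprc (0.65, 0.0142), all by edgeR's test. The summed level of 9 neutrophil genes was 1065 to 2428 CPM with vehicle and 2950 to 6000 CPM with AG636. The list holds genes of granule proteins together with S100a8, S100a9 and the surface marker Ly6g. Much of the sum was S100a8, at 484 to 1339 CPM with vehicle and 1328 to 3150 CPM with AG636. S100a8 itself did not pass (adjusted p = 0.0872 by edgeR's test). Of the 9, 6 were higher, beside 10.3% of all genes tested. Ly6g, among these 6, had 9, 11 and 9 reads with vehicle and 16, 31 and 27 with AG636. It passed the filter on low counts through its AG636 libraries. Of 8 monocyte and macrophage genes, summed at 68.8 to 104 and at 169 to 238 CPM, 3 were higher, beside 10.3% of all genes tested. Of 8 erythroid genes, summed at 1693 to 4772 and at 1966 to 3274 CPM, 2 were lower, beside 11.0% of all genes tested. Klf1 was among these 2 (a call lost without AG636 replicate 1 or 3), and Vehicle replicate 1 had the highest erythroid sum. The T cell list summed to 8.20 to 14.9 CPM with vehicle and 10.5 to 11.5 CPM with AG636, with Cd3e at or near 0. The B cell list summed to 13.4 to 26.9 and to 29.1 to 43.7 CPM, with Pax5 at or near 0. The groups did not overlap for this sum, as for 41.1% of single genes tested in either direction. Of the 6 B cell genes 2 were tested and 0 passed in edgeR's test, Ighm at 0.71 (adjusted p = 0.209) and Cd79b at 0.55 (adjusted p = 0.250). The part of these cells, or of maturation within the sorted population, in the decrease of Atf4, Trib3, Chac1, Nupr1 and the related genes was not tested. In such bulk samples, fewer cells expressing a gene and less of its RNA per cell cannot be told apart.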

How the data were processed

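The authors made 3' mRNA libraries with the QuantSeq kit, sequenced single-end reads, mapped them to mm10 with HISAT2 and deposited raw read counts per gene made with featureCounts of the Subread package. The submitters' processing notes list cutadapt 1.9.1, HISAT2 2.0.4 and Subread 1.5.0-p3, and the published methods name other releases of cutadapt and Subread. The annotation release and the use of strand are not given in the sources used here. The gene length in the deposited table, in bases (another unit), was not used in any test. GENCODE mouse symbols were found for 54723 of 54838 identifiers, and 54809 of the identifiers were also in GENCODE M21. Ddit3 has a second identifier with 0 counts, which was left out.

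After filterByExpr (minimum count 10, minimum total count 15) and TMM scaling, counts were compared in edgeR 4.0.16 (R 4.3.3) by the quasi-likelihood test of AG636 against vehicle over all 11092 genes that passed, with Benjamini-Hochberg adjustment and a threshold of 0.05. Each SE was obtained from the log2 fold change and the root of its F statistic. Pairs of replicates differed by more than sampling noise (chi-square per degree of freedom 6.67 to 15.6), and each was counted once. The floor of 3 counts and the exact 95% intervals of count ratios, which are scaled for effective library size, cover counting error only. Scripts were tested on simulated data.

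Groups came from the submitters' labels. The published analysis used limma; edgeR was used because the values are counts. The members and gene lists were chosen with earlier results of these data known, and their genes were named by rule: all members, the kinases, Ddit3, Cebpb, Ddit4, Hspa5, Xbp1, Herpud1, Trib1, Trib2, Sesn1, Sesn3, Chac2 and Ppp1r15b in any case. Other listed genes could be named where they passed the threshold, and the rest were counted. Slc38a2, Slc1a4, Gdf15, Eif2s1, Jun, Cebpz and the marker genes named were singled out after their values were seen. Alternatives were DESeq2 1.42.0, limma-voom (limma 3.58.1), other size factors, other filters, a replicate block, each library left out, an adjusted p under 0.01 and a fold change of at least 1.5.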

Additional observations from a re-analysis of the deposited data

How the results depend on the processing

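Atf4 was lower past the threshold under all 14 alternatives that refit it, with log2 fold changes from -1.03 to -0.75, and the direction of Chac1, Trib3 and Nupr1 held under the 13 that could test them. The count of regulators called lower was 1 in place of 4 with at least 10 counts in every library, because 3 were then not tested, and 1 at an adjusted p under 0.01; with single libraries left out it ran from 1 to 4. The count called higher was 1 in place of 0 with no filter, and from 0 to 1 with libraries left out; the gene was Ppp1r15a and the cause was not tested. Of the 73 related ISR genes tested, 3 in place of 5 were higher and 21 in place of 35 lower at an adjusted p under 0.01, and with libraries left out from 3 to 7 and from 24 to 36. Over all genes, 2368 were called, 556 at an adjusted p under 0.01 and from 851 to 2311 with libraries left out, lowest without AG636 replicate 3. Of the genes refitted under the alternatives, those whose direction turned were not called. Slc1a4, Gdf15 and Eif2s1, not called, passed with DESeq2 and with no filter. With library size alone the log2 fold change was 0.013 for Eif2ak1, 0.056 for Ppp1r15b and 0.025 for Xbp1, it was -0.0048 for Eif2ak3 with no filter, and 0.00054 for Ppp1r15b with limma-voom. With libraries left out it ran from -0.15 to 0.17 for Cebpg, -0.18 to 0.089 for Eif2ak1, -0.29 to 0.30 for Eif2ak3, -0.20 to 0.18 for Ppp1r15b, -0.029 to 0.27 for Cebpb and -0.26 to 0.22 for Xbp1. Same-numbered libraries share only a number (correlations of their deviations -0.057, -0.178 and 0.224), and with the number as a replicate block 1960 genes were called, with 4 regulators lower and 0 higher and Atf4 at -0.90; the calls of Eif2b4 and Aldh18a1 ended. Depth limits Atf3, Asns, Chac1 and Nupr1, which rest on few reads.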

Other observations

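Within the AG636 group, the regulators were not spread evenly over the mice. AG636 replicate 2 was the highest of the 3 treated libraries for 6 of the 8 regulators tested, Atf4, Trib3, Chac1 and Nupr1 among them, beside 39.1% of all genes tested. Slc1a4, Slc6a9, Slc7a5, Trib2 and Chac2 were also highest in that library. AG636 replicate 3 was the lowest treated library for 12 of the 13 tRNA charging genes, beside 35.6% of all genes. Among the controls, Vehicle replicate 1 was the highest for all 13 tRNA charging genes (35.7% of all genes) and also had the highest summed level of the erythroid genes, 4772 CPM. Vehicle replicate 3 was the highest control for all 16 ER stress genes of the ATF6 and XBP1 arms (34.6% of all genes), and AG636 replicate 1 the highest treated library for 13 of these 16. These orders were noticed in the data, genes of a list are not independent, and no test was made of them.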
